A study of Homo sapiens with 6 samples.

Results

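Interferon-stimulated genes and viral RNA sensors were examined in IOMM-Lee cells, an established line from a malignant (grade 3) meningioma. Such cells were kept for 48 h at 0.2% oxygen (hypoxia, 3 libraries) or grown in normoxia for the same time (3 libraries), and the oxygen level of the normoxia cultures is not stated in the labels. Both groups were grown in DMEM with serum and antibiotics at 37 °C, and the labels name no added gene or other drug. The labels call the libraries of a group biological replicates, and all come from 1 line. The set consisted of 52 genes listed by symbol, and all 52 had a row among the 61859 genes of the count table. They were divided by function into 8 sensors and RNA-activated enzymes (IFIH1, DHX58, RIGI, CGAS, OAS1, OAS2, OAS3 and EIF2AK2), 33 effectors and 11 signalling factors.

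Cells detect viral RNA in the cytoplasm with helicases such as RIG-I (gene RIGI) and MDA5 (gene IFIH1), which signal through the mitochondrial adaptor MAVS to induce type I interferon. Secreted interferon binds the receptor chains IFNAR1 and IFNAR2, whose kinases JAK1 and TYK2 phosphorylate STAT proteins such as STAT2. With IRF9 STAT2 takes part in a complex that binds interferon-stimulated response elements in promoters and turns on antiviral effector genes, including the sensors themselves. Many tumour lines keep a low level of this programme without infection.

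The hypoxia libraries held from 10619864 to 18447885 counts and the normoxia libraries from 14685317 to 19554178. Levels are given as CPM, the counts scaled to TMM-adjusted library totals, and a floor of 3 counts corresponded to between 0.181 and 0.316 CPM in hypoxia and between 0.133 and 0.184 CPM in normoxia, for counting error only. Genes of the mitochondrial genome took from 2.05% to 3.04% of counts in hypoxia and from 6.42% to 7.29% in normoxia. CA9, a carbonic anhydrase gene that low oxygen is known to induce, was at 949, 945 and 892 CPM in hypoxia against 61.2, 63.0 and 87.9 CPM in normoxia. Of 8 meningioma markers, VIM, CRABP2, DSP and MUC1 rose, the somatostatin receptor gene SSTR2 fell, CDH2 and S100A6 were not called, and the arachnoid marker PTGDS was below the floor in both groups and not tested. The mesenchymal filament gene VIM averaged 6149 CPM in hypoxia and 3052 CPM in normoxia. CRABP2 was 58.1-fold, MUC1 4.27-fold and DSP 3.01-fold higher in hypoxia. SSTR2 averaged 0.300 CPM in hypoxia and 0.844 CPM in normoxia (edgeR adjusted p = 0.03039). It had 2, 5 and 3 counts in hypoxia, near the floor, against 26, 12 and 11 in normoxia, and its call in other fits was not examined. All 10 leukocyte markers were too low to test, with sums between 1.02 and 1.22 CPM in hypoxia and between 0.306 and 1.02 CPM in normoxia, and MS4A1 and TYROBP had no count in any library. The 6 plasmacytoid dendritic cell markers summed to between 37.6 and 41.6 CPM in hypoxia and between 68.6 and 75.0 CPM in normoxia, of which TCF4, which was called lower, supplied 35.9 to 39.2 CPM in hypoxia and 67.8 to 74.0 CPM in normoxia. LILRA4 and TLR9 had no count. CLEC4C had 1, 2 and 3 counts in hypoxia and 1, 0 and 0 in normoxia, and TLR7 had 0, 0 and 0 in hypoxia and 0, 0 and 2 in normoxia. All of these were too low to test. IL3RA was called higher (edgeR adjusted p = 0.02518), a call lost with DESeq2 (0.08909), scaling by library totals (0.1079), no filter on low counts (0.1253) and 4 of 6 libraries left out in turn (from 0.05632 to 0.1036). The 5 endothelial markers summed to between 167 and 182 CPM in hypoxia and between 137 and 160 CPM in normoxia, nearly all from TIE1, which lay between 162 and 180 CPM in hypoxia and between 133 and 156 CPM in normoxia and was not called (edgeR adjusted p = 0.06179). PECAM1 was not called (log2 change 0.95), CDH5 and VWF were not tested, and KDR was lower (edgeR adjusted p = 0.01703), a call lost when hypoxia replicate 2 (0.05075) or normoxia replicate 2 (0.05108) was left out. The part of these cell types in the results was not tested.

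Most of the effector, sensor and RNA-activated enzyme genes that changed were lower in hypoxia. Of the 52 genes, 25 fell, 7 rose, 17 were tested without a call and 3 (CGAS, RSAD2 and IFI44L) were too low to test, by edgeR's quasi-likelihood test at a Benjamini-Hochberg adjusted p under 0.05. Of all 16411 genes tested, 31.0% were called lower and 31.2% higher, 62.2% together, against 51.0% lower and 14.3% higher among the 49 tested members. The median log2 change was -0.74 over these 49 genes and 0.01 over all tested genes. Every hypoxia library lay below every normoxia library in 26 of the 49 tested members and above in 6, where 34.4% and 33.4% of all tested genes did so. Falls of at least 2-fold were called in 21 members and rises of that size in 4, against 17.7% and 16.3% of all tested genes. Falls of at least 4-fold were called in 6 members (OAS2, OAS3, IFIT2, IFIH1, DDX60 and DDX60L), a size that 5.72% of all tested genes reached. Among the 49, OASL, IFI27 and USP18 met the count minimum in every normoxia library but not in every hypoxia library. Falls were called in 6 of the 8 sensors and RNA-activated enzymes, 17 of 33 effectors and 2 of 11 signalling factors, and rises in 0, 3 and 4 of these. With library totals in place of TMM scaling, which shifted the median of all genes to -0.30, 32 members were lower and 5 higher, beside 42.1% and 20.8% of all tested genes. In bulk RNA, fewer cells expressing a gene and less RNA per cell cannot be told apart.

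**Figure D1:**
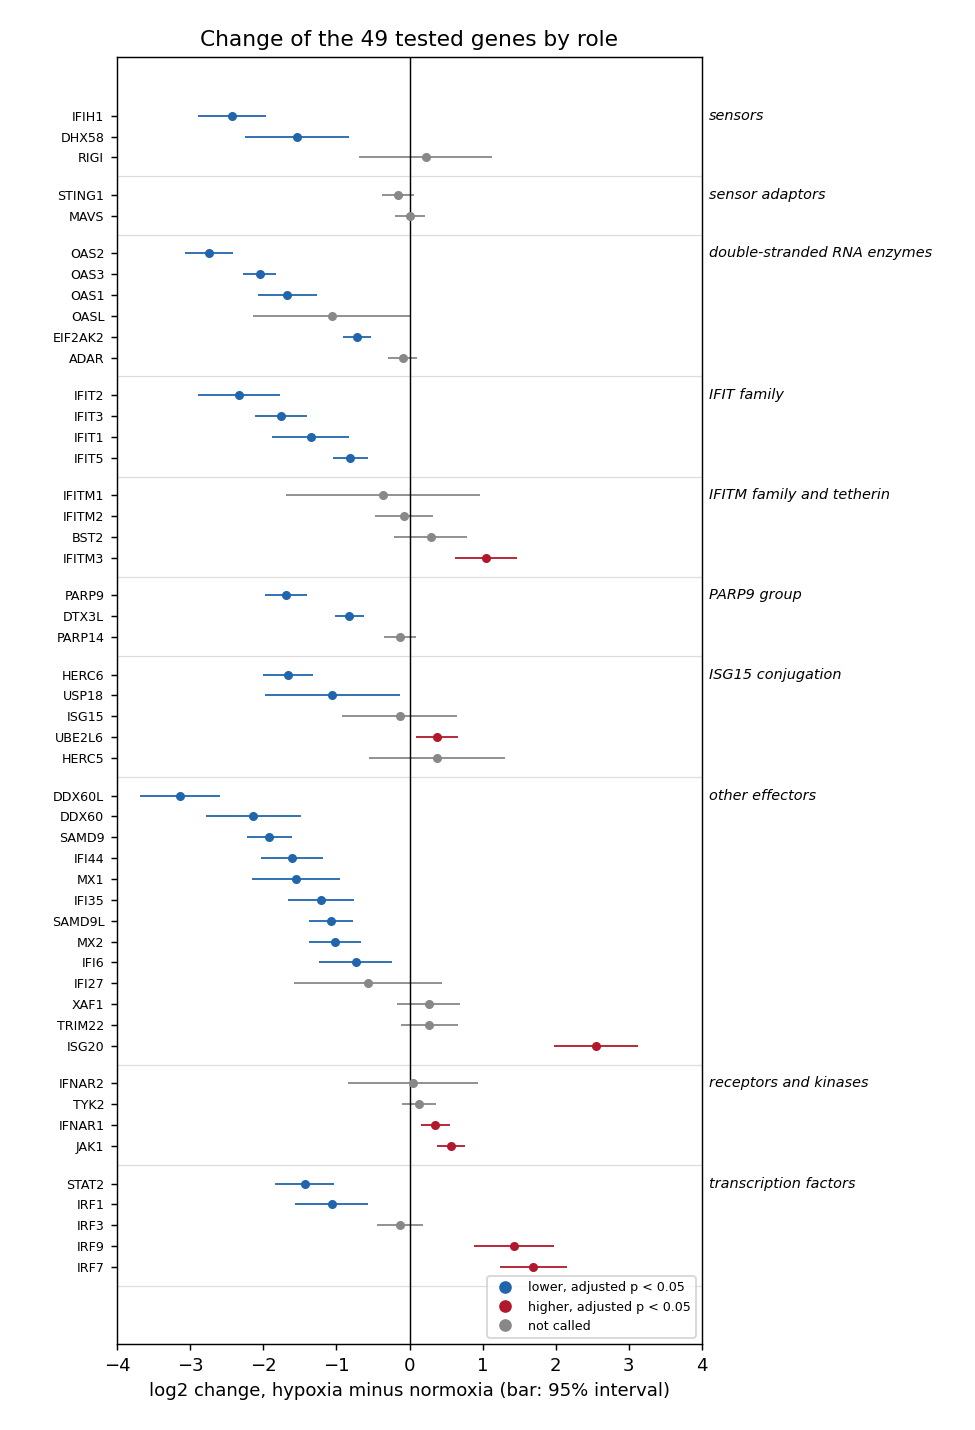
Log2 change of each tested gene, hypoxia minus normoxia, with its 95% interval from the edgeR fit, in groups by function (group names at the right). Blue genes fell, red genes rose and grey genes were not called. IFIH1, DHX58, OAS and IFIT genes lie left of 0, and receptors and kinases at or right of 0.

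Promoter sequence was available for 39 of the 52 genes, as windows from 250 bases before to 50 bases after each RefSeq start (GRCh38.p14). The response element was searched on both strands as GAAA, any 2 bases and GAAA again. It was present in a window of 24 of these 39 genes (61.5%), and in 4.38% of all 27305 genes with a window. Windows of the 5 called genes with an element and the largest absolute changes follow, because they show the same element upstream of 4 genes that fell and 1 that rose, with the element in capitals and overlapping elements run together.
DDX60L: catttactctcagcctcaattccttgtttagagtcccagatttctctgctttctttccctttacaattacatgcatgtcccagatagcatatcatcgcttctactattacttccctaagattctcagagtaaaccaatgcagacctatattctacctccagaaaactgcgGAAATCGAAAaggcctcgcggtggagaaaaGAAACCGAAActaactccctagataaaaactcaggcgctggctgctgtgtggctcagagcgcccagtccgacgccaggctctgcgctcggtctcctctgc
ISG20: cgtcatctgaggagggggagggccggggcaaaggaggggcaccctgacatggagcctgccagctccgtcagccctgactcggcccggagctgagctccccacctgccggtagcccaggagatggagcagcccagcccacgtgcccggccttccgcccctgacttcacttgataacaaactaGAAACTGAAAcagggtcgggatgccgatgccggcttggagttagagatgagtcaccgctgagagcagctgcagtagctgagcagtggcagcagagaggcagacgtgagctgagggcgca
IFIH1: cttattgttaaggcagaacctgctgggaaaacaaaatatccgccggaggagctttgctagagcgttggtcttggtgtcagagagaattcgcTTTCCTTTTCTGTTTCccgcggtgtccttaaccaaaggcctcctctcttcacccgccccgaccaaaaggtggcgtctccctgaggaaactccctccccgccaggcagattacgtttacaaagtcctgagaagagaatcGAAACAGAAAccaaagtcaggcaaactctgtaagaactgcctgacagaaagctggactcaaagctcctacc
DDX60: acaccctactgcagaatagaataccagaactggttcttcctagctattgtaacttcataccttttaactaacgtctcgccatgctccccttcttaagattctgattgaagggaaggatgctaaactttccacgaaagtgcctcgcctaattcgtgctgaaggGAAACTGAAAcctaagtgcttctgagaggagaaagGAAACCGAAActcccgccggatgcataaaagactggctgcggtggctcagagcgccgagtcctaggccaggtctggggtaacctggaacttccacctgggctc
OAS3: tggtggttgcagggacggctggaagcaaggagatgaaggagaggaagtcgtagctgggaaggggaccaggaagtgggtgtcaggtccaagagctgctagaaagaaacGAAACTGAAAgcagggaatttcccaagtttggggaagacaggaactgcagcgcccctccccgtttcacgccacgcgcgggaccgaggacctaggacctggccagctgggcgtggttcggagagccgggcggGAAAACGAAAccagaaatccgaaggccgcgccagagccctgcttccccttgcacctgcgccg
These are chr4:168480443-168480742 on the minus strand for DDX60L, chr15:88638766-88639065 on the plus strand for ISG20, chr2:162318635-162318934 on the minus strand for IFIH1, chr4:168318703-168319002 on the minus strand for DDX60 and chr12:112938224-112938523 on the plus strand for OAS3. The elements begin 80 and 50 bases before the start in DDX60L and 88 and 53 bases before it in its neighbour DDX60. In ISG20, the gene of this group that rose, the element begins 69 bases before the start.

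Among the 22 tested genes with the element, the median log2 change was -0.82, with 14 lower, 2 higher (ISG20 and IFITM3) and 6 not called. Among the 15 tested genes without it, the median was 0.01, with 6 lower, 4 higher and 5 not called. Those 15 included OAS1, HERC6 and STAT2 among the falls and the kinase gene JAK1 among the rises. They also held every signalling factor with a window (IRF1, IRF9, STAT2, IFNAR1, JAK1, TYK2 and MAVS), and no gene with the element was one. Presence of the element therefore overlaps with the division by function, and the part of each was not tested. The gamma-activated sequence TTCNNNGAA was found in 10 of the 39 genes and in 9.38% of all genes. The core of the hypoxia response element, ACGTG or GCGTG on either strand, was found in 17 of the 39 (43.6%) and in 52.4% of all genes. It was present in 5 of 6 genes that rose and 6 of 20 that fell. Of those rises, UBE2L6 and IFNAR1 lost their call in some other fits. A gene with several windows, such as JAK1 or IFNAR1, counted when any window held the core. These matches describe the letters in the windows and are not measurements of binding.

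**Figure D2:**
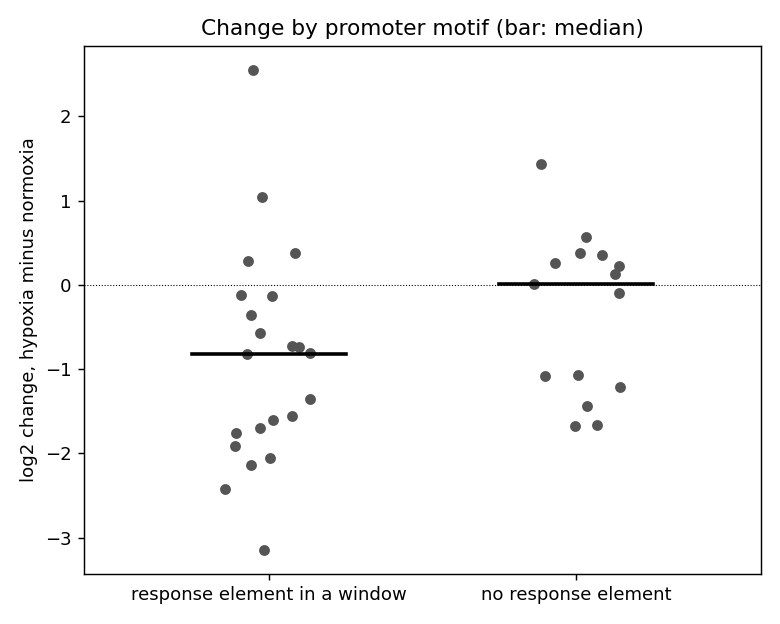
Log2 change, hypoxia minus normoxia, of the 22 tested genes with a response element in a promoter window and of the 15 without one. Each point is 1 gene, bars are medians (-0.82 and 0.01), and the ranges of both sets overlap. All signalling factors with a window are in the set without the element.

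Among the sensors, the genes of MDA5 and its relative LGP2 fell. IFIH1 (ENSG00000115267, chr2:162267079-162318703, GRCh38), which encodes the MDA5 sensor of long double-stranded RNA, was at 2.95, 1.83 and 2.41 CPM in hypoxia, against 12.1, 12.99 and 13.5 CPM in normoxia. Every hypoxia library lay below every normoxia library, and the log2 change was -2.42 ± 0.21 (SE; edgeR adjusted p = 3.596e-06), 5.36-fold lower. DHX58, which encodes LGP2, a helicase that assists MDA5, was at 0.844, 1.02 and 0.963 CPM in hypoxia against 2.97, 2.21 and 3.09 CPM in normoxia, 2.91-fold lower (edgeR adjusted p = 0.001798). RIGI, the sensor of short RNA with a 5′ triphosphate, was at 1.371, 1.94 and 3.01 CPM in hypoxia and 2.66, 1.78 and 1.05 CPM in normoxia. These groups overlapped, and the 95% interval of its log2 change ran from -0.69 to 1.13 (edgeR adjusted p = 0.6542). CGAS, the sensor of cytoplasmic DNA, had 1, 0 and 1 counts in hypoxia and 1, 0 and 0 in normoxia, so no difference was detectable at this depth.

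Neither adaptor downstream of these sensors was called. MAVS was at 173, 201 and 173 CPM in hypoxia and 176, 185 and 180 CPM in normoxia, and the interval of its log2 change was -0.19 to 0.22 (edgeR adjusted p = 0.91). STING1, which encodes the adaptor of cGAS signalling, was at 61.4, 56.2 and 55.3 CPM in hypoxia and 65.6, 60.4 and 67.5 CPM in normoxia, with an interval of -0.38 to 0.05 (edgeR adjusted p = 0.1719). Scaled by library totals only, both were called lower, MAVS at a log2 change of -0.29 (edgeR adjusted p = 0.03136) and STING1 at -0.47 (0.001858). The ratio of IFIH1 to MAVS within a library was 0.0170, 0.00915 and 0.0139 in hypoxia against 0.0687, 0.0702 and 0.0751 in normoxia. This ratio and the others below compare genes within a library and do not depend on the scaling between libraries. The pairs were picked after their levels were seen and carry no test.

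Enzymes that are activated by double-stranded RNA fell to different degrees. The OAS enzymes make 2′-5′ oligoadenylates, a signal that leads to RNA decay, and OAS1, OAS3 and OAS2 lie next to each other on chromosome 12 (chr12:112906777-113011723, GRCh38). OAS2 was at 4.11, 4.59 and 5.24 CPM in hypoxia against 30.0, 32.4 and 32.4 CPM in normoxia, 6.71-fold lower (log2 change -2.75 ± 0.15, SE; edgeR adjusted p = 1.431e-07). OAS3, whose promoter is printed above, was at 21.7, 20.0 and 21.9 CPM in hypoxia against 86.0, 86.8 and 90.6 CPM in normoxia (log2 change -2.05 ± 0.10, adjusted p = 7.885e-08). OAS1 was at 4.32, 3.98 and 4.27 CPM in hypoxia against 11.4, 13.4 and 15.3 CPM in normoxia (log2 change -1.67 ± 0.19, adjusted p = 2.119e-05). For these genes the groups were well separated, and OAS3 was the most abundant per kilobase of exon, at 2.57 CPM per kb in hypoxia and 10.6 in normoxia. OASL, a relative without synthetase activity, was at 0.633, 0.204 and 0.963 CPM in hypoxia and 1.02, 1.47 and 1.58 CPM in normoxia and was not called (edgeR adjusted p = 0.07885), but it passed when scaled by library totals only (0.02662) and when hypoxia replicate 3 was left out (0.02208).

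EIF2AK2, which encodes PKR, the kinase that halts translation on binding double-stranded RNA, was at 120, 112 and 123 CPM in hypoxia against 189, 203 and 195 CPM in normoxia. The groups did not overlap, and it was 1.65-fold lower (log2 change -0.72 ± 0.09, SE; edgeR adjusted p = 4.115e-05). ADAR, which edits adenosine to inosine in double-stranded RNA and so limits its recognition, was at 278, 315 and 279 CPM in hypoxia and 299, 309 and 323 CPM in normoxia. Its groups overlapped and its interval was -0.30 to 0.11 (edgeR adjusted p = 0.3885), but scaled by library totals only it was called lower at -0.40 (adjusted p = 0.004819). Within a library, the ratio of EIF2AK2 to ADAR was 0.434, 0.357 and 0.441 in hypoxia against 0.632, 0.657 and 0.603 in normoxia.

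All 4 IFIT genes, which lie in 1 cluster (chr10:89283694-89421001, GRCh38), fell. Their family includes proteins that bind viral RNA ends and block its translation. IFIT2 was at 2.21, 1.12 and 2.17 CPM in hypoxia against 9.27, 9.01 and 9.98 CPM in normoxia, 5.04-fold lower (edgeR adjusted p = 1.97e-05). IFIT3 was at 4.85, 4.69 and 5.36 CPM in hypoxia against 15.4, 17.6 and 17.7 CPM in normoxia, 3.38-fold lower (adjusted p = 5.41e-06). IFIT1 was at 5.59, 3.26 and 6.56 CPM in hypoxia against 11.7, 12.99 and 15.4 CPM in normoxia, 2.55-fold lower (adjusted p = 0.0005925). IFIT5, the most abundant of the family per kilobase (8.33 CPM per kb in hypoxia, 14.7 in normoxia), had the smallest log2 change, -0.81 ± 0.11 (SE; adjusted p = 8.334e-05). It was at 34.7, 29.8 and 35.9 CPM in hypoxia against 56.7, 60.5 and 59.3 CPM in normoxia. In all 4 genes the hypoxia libraries lay below the normoxia libraries. Of all tested genes, 34.4% did so and 31.0% were called lower.

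The IFITM genes and tetherin, whose proteins act in membranes to stop virus entry or release, included no called fall and 1 rise. They are 4 genes, to be read beside 31.0% lower and 31.2% higher of all tested genes. IFITM3 was at 500, 297 and 353 CPM in hypoxia against 185, 160 and 212 CPM in normoxia, and rose 2.06-fold (log2 change 1.05 ± 0.19, SE; edgeR adjusted p = 0.001192). IFITM2 overlapped between groups, at 131, 78.3 and 85.8 CPM in hypoxia and 105, 95.2 and 110 CPM in normoxia (adjusted p = 0.7326), and was called lower when scaled by library totals only (log2 change -0.39, adjusted p = 0.0458) and when hypoxia replicate 1 was left out (-0.35, 0.02532). The ratio of IFITM3 to IFITM2 was 3.82, 3.79 and 4.11 in hypoxia against 1.76, 1.68 and 1.93 in normoxia. These genes are close copies that can share reads, and IFITM1 shares 32.5% of its exon length with IFITM2 on the same strand, so its 0.715 CPM in hypoxia and 0.930 CPM in normoxia are uncertain. BST2, which encodes tetherin, was at 242, 210 and 222 CPM in hypoxia and 135, 160 and 257 CPM in normoxia (adjusted p = 0.2841). The highest of these was normoxia replicate 3, without which it was called higher in hypoxia (log2 change 0.59, edgeR adjusted p = 0.002877). BST2 and IFITM3 were the most abundant members per kilobase, at 201 and 284 CPM per kb in hypoxia and 165 and 138 CPM per kb in normoxia.

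**Figure D3:**
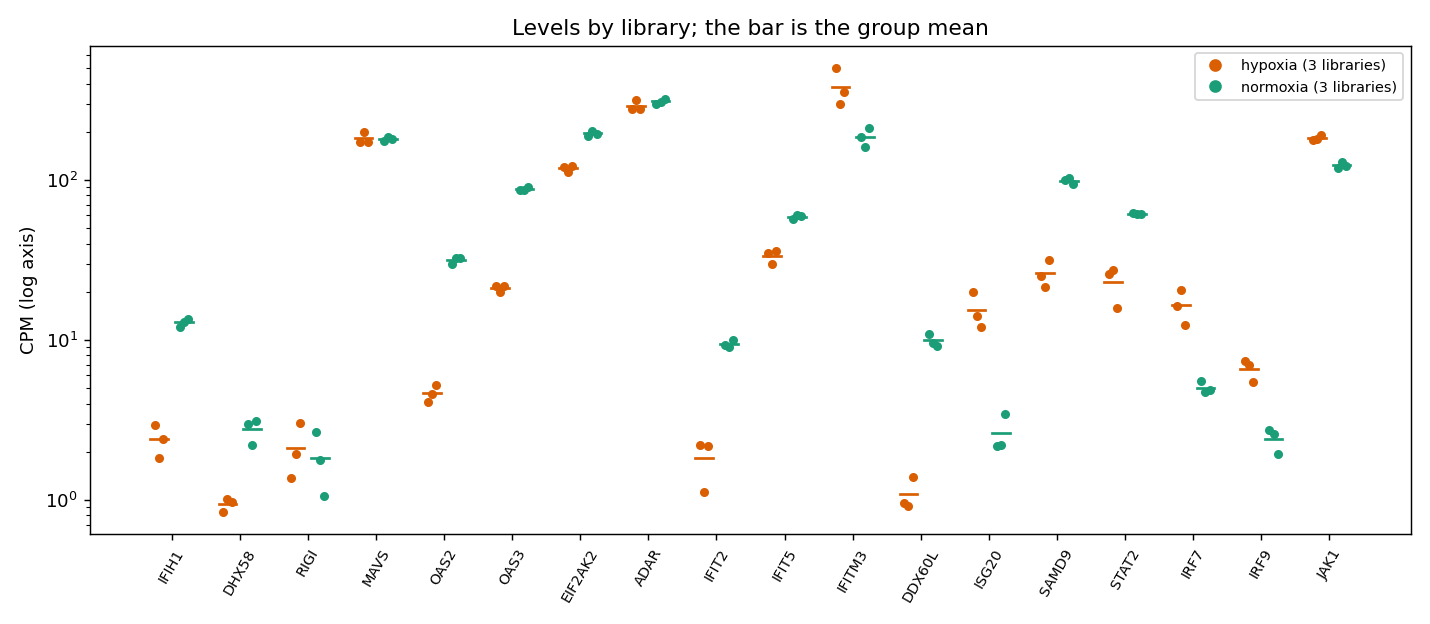
CPM on a log axis of 18 genes in each hypoxia library (orange) and normoxia library (green), with group means as bars. MAVS and ADAR overlap between groups, OAS2, IFIH1 and DDX60L lie lower in hypoxia, and ISG20, IRF7, IRF9 and IFITM3 lie higher.

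Of the 15 other effectors, 9 fell, 1 rose, 3 were not called and 2 were not tested. That is 69.2% lower and 7.69% higher of the 13 tested, beside 31.0% and 31.2% of all tested genes. DDX60L (ENSG00000181381, chr4:168356735-168537786, GRCh38), a helicase-like gene beside DDX60, had the largest fall of all members. It was at 0.949, 0.917 and 1.38 CPM in hypoxia against 10.96, 9.62 and 9.22 CPM in normoxia, 8.82-fold lower (log2 change -3.14 ± 0.25, SE; edgeR adjusted p = 1.816e-06). DDX60 was at 1.90, 3.36 and 1.32 CPM in hypoxia against 9.54, 9.62 and 8.82 CPM in normoxia (log2 change -2.13 ± 0.30, adjusted p = 0.0001088). SAMD9, an antiviral factor that restrains translation, was at 25.1, 21.4 and 31.8 CPM in hypoxia against 99.7, 103 and 94.2 CPM in normoxia, 3.77-fold lower (adjusted p = 1.066e-06). Its neighbour SAMD9L was 2.11-fold lower (adjusted p = 6.175e-05). The ratio of SAMD9 to SAMD9L was 0.702, 0.485 and 1.02 in hypoxia, below the 1.27, 1.21 and 1.35 in normoxia.

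IFI44 was at 12.5, 11.2 and 7.10 CPM in hypoxia against 30.2, 32.8 and 29.6 CPM in normoxia, 3.05-fold lower (edgeR adjusted p = 3.662e-05). The dynamin-like GTPase genes MX1 and MX2, which encode blocks to influenza virus and HIV-1, averaged 1.43 ± 0.134 and 6.41 ± 0.506 CPM in hypoxia and 4.19 ± 0.547 and 12.9 ± 0.572 CPM in normoxia (SD, n = 3). They were 2.93-fold and 2.03-fold lower (edgeR adjusted p = 0.000554 and 0.0002635). IFI35, a partner of NMI, was 2.31-fold lower (adjusted p = 0.0004215), and IFI6, a mitochondrial survival factor, 1.67-fold lower (adjusted p = 0.01431), a call lost without normoxia replicate 1 (0.05121). XAF1 at 7.003 ± 0.586 CPM in hypoxia and 5.87 ± 0.807 in normoxia, TRIM22 at 44.1 ± 10.8 and 36.3 ± 4.14, and IFI27 at 0.805 ± 0.481 and 1.20 ± 0.0888 (SD, n = 3) were not called (edgeR adjusted p = 0.2666, 0.2021 and 0.3024). XAF1 shares 38.3% of its exon length with PRAL on the opposite strand, which was too low to test. TRIM22, a ubiquitin ligase, was called higher without hypoxia replicate 3 (log2 change 0.44, edgeR adjusted p = 0.003924). IFI44L had no count in hypoxia and 6, 1 and 2 counts in normoxia, and the viperin gene RSAD2 had 1, 0 and 0 counts in hypoxia and 4, 0 and 1 in normoxia.

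ISG20, a 3′ to 5′ exonuclease that degrades single-stranded RNA, had the largest rise of all members. It was at 19.9, 14.1 and 11.98 CPM in hypoxia against 2.17, 2.21 and 3.44 CPM in normoxia, 5.85-fold higher (log2 change 2.55 ± 0.26, SE; edgeR adjusted p = 1.175e-05). The groups did not overlap. The promoter window of ISG20 printed above held the response element and the core of the hypoxia response element.

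Of the 5 genes of the ubiquitin-like protein ISG15 and its conjugation system, HERC6 and USP18 fell, UBE2L6 rose, and ISG15 and HERC5 were not called. These shares were 40% lower and 20% higher, beside 31.0% and 31.2% of all tested genes. ISG15 itself was at 4.64, 1.73 and 2.95 CPM in hypoxia and 3.68, 2.39 and 4.09 CPM in normoxia, and the interval of its log2 change was -0.92 to 0.65 (edgeR adjusted p = 0.7585). HERC6, a ligase of the HERC family, was at 7.17, 6.12 and 6.74 CPM in hypoxia against 21.7, 18.9 and 22.9 CPM in normoxia, 3.17-fold lower (adjusted p = 5.544e-06). HERC5, the main human ISG15 ligase, was at 2.32, 1.22 and 4.39 CPM in hypoxia and 2.75, 1.84 and 1.69 CPM in normoxia and was not called (adjusted p = 0.4585). USP18, which removes ISG15 and restrains receptor signalling, was at 0.527, 0.408 and 0.963 CPM in hypoxia against 1.55, 1.23 and 1.40 CPM in normoxia (log2 change -1.05, adjusted p = 0.04649). UBE2L6, the conjugating enzyme, was at 90.7, 98.8 and 79.1 CPM in hypoxia and 58.4, 68.7 and 80.2 CPM in normoxia (log2 change 0.37, adjusted p = 0.0287). The groups of UBE2L6 overlapped. The USP18 and UBE2L6 calls were each lost under 8 of 16 other fits, USP18 with a replicate block (adjusted p = 0.06137) and DESeq2 (0.1157), and UBE2L6 when scaled by library totals only (0.6517) and with DESeq2 (0.102).

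PARP9 and DTX3L, which encode a complex that joins ADP-ribosylation to ubiquitin transfer, are read in opposite directions from neighbouring starts on chromosome 3. PARP9 was at 10.9, 12.3 and 14.1 CPM in hypoxia against 40.5, 41.6 and 39.2 CPM in normoxia, 3.23-fold lower (edgeR adjusted p = 1.652e-06). DTX3L was at 70.1, 65.8 and 70.0 CPM in hypoxia against 115, 128 and 121 CPM in normoxia, 1.77-fold lower (adjusted p = 2.131e-05). Their ratio was 0.155, 0.187 and 0.201 in hypoxia against 0.352, 0.325 and 0.323 in normoxia. PARP14, a mono-ADP-ribosyltransferase in the same region, was at 122, 120 and 142 CPM in hypoxia and 139, 148 and 132 CPM in normoxia (log2 change -0.13, interval -0.35 to 0.09, adjusted p = 0.2937). PARP14 was called lower when scaled by library totals only (-0.44, edgeR adjusted p = 0.004766) and when hypoxia replicate 3 was left out (-0.24, 0.01852).

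**Figure D4:**
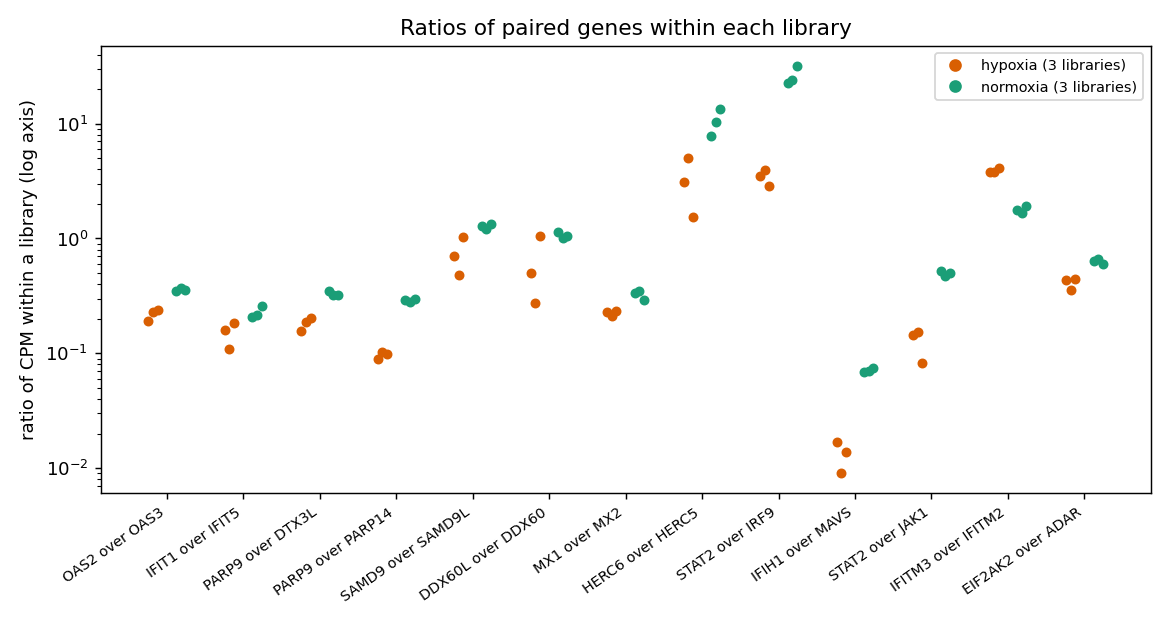
Ratio of CPM of the first-named to the second-named gene of 13 pairs in each hypoxia library (orange) and normoxia library (green), on a log axis. The pairs were picked after their levels were seen, so their separation is no test. Groups are apart in 12 pairs, and DDX60L over DDX60 overlaps.

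Of the 4 receptor and kinase genes, 0 were called lower in hypoxia and 2 (IFNAR1 and JAK1) rose, beside 31.0% lower and 31.2% higher of all tested genes. JAK1 was at 178, 180 and 192 CPM in hypoxia against 119, 130 and 122 CPM in normoxia, 1.49-fold higher (edgeR adjusted p = 0.0002214). IFNAR1 was at 139, 141 and 155 CPM in hypoxia against 113, 120 and 107 CPM in normoxia, 1.28-fold higher (adjusted p = 0.0063), a call that did not hold when scaled by library totals only (log2 change 0.04, adjusted p = 0.7339) or with no filter on low counts (0.23, adjusted p = 0.1653). TYK2 was at 45.7, 49.9 and 50.2 CPM in hypoxia and 46.5, 40.6 and 46.5 CPM in normoxia (log2 change 0.13, edgeR adjusted p = 0.3191, or -0.18 and 0.2016 when scaled by library totals only). IFNAR2 was at 3.69, 6.73 and 2.23 CPM in hypoxia and 4.97, 4.35 and 2.57 CPM in normoxia (adjusted p = 0.9232). IFNAR2 shares 44.2% of its exon length with the read-through gene IFNAR2-IL10RB, so its level is uncertain.

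Of the 5 transcription factors, STAT2 and IRF1 fell, IRF7 and IRF9 rose and IRF3 was not called. These shares, 40% lower and 40% higher, were near the 31.0% and 31.2% of all tested genes. STAT2, the interferon-specific STAT, was at 25.9, 27.4 and 15.8 CPM in hypoxia against 62.6, 61.6 and 60.9 CPM in normoxia, 2.70-fold lower (log2 change -1.44 ± 0.18, SE; edgeR adjusted p = 7.086e-05). IRF9, which gives the complex its DNA binding, was at 7.38, 6.93 and 5.48 CPM in hypoxia against 2.75, 2.57 and 1.93 CPM in normoxia, 2.70-fold higher (adjusted p = 0.0004856). IRF9 shares 48.4% of its exon length with a read-through gene on the same strand, which had at most 1 count in any library, so the level of IRF9 is uncertain. The ratio of STAT2 to IRF9 was 3.51, 3.96 and 2.88 in hypoxia against 22.7, 23.9 and 31.6 in normoxia.

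IRF7, which amplifies interferon production, was at 16.3, 20.5 and 12.5 CPM in hypoxia against 5.50, 4.72 and 4.85 CPM in normoxia, 3.24-fold higher (edgeR adjusted p = 4.129e-05). IRF1, an activator that interferon-gamma induces, was at 4.64, 7.34 and 4.70 CPM in hypoxia against 9.58, 11.8 and 13.3 CPM in normoxia, 2.09-fold lower (adjusted p = 0.001861). IRF1 shares 22.0% of its exon length with genes on the opposite strand, mainly IRF1-AS1, which also fell. IRF3, the factor that sensors activate, was at 18.8, 20.1 and 16.5 CPM in hypoxia and 19.1, 18.5 and 22.9 CPM in normoxia (log2 change -0.13, edgeR adjusted p = 0.4398, or -0.44 and 0.01968 when scaled by library totals only). IRF3 shares 19.3% of its exon length with BCL2L12 on the opposite strand, which was called lower (edgeR adjusted p = 0.02858).

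**Figure D5:**
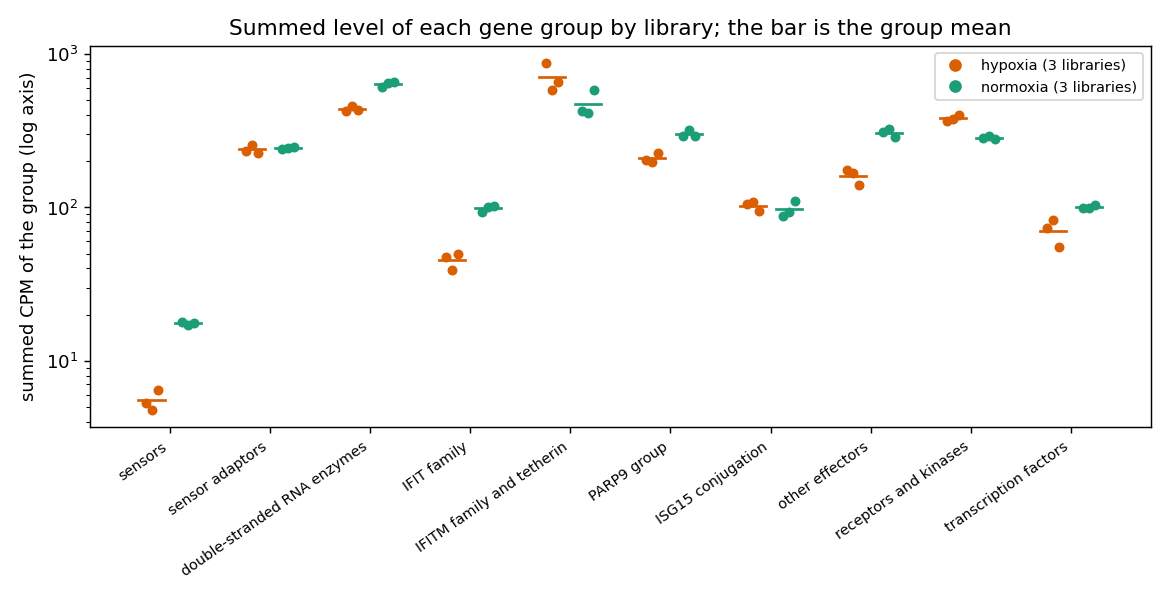
Summed CPM of each functional group in each hypoxia library (orange) and normoxia library (green), on a log axis with group means as bars. The sensors (IFIH1, DHX58, RIGI and CGAS), double-stranded RNA enzymes, IFIT genes, PARP9 group, other effectors and transcription factors lie lower in hypoxia. Receptors and kinases lie higher, as does the IFITM group by a narrow gap. Adaptors and ISG15 conjugation genes overlap.

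Levels were also summed over each functional group. The sensor genes IFIH1, DHX58, RIGI and CGAS summed to 5.27, 4.79 and 6.44 CPM in hypoxia against 17.8, 17.0 and 17.7 CPM in normoxia, and IFIT genes summed to 47.3, 38.8 and 49.96 CPM in hypoxia against 93.1, 100.2 and 102 CPM in normoxia. The IFITM group summed to 874, 586 and 661 CPM in hypoxia and 426, 416 and 580 CPM in normoxia. All 52 members together summed to 2513, 2276 and 2295 CPM in hypoxia and 2471, 2553 and 2680 CPM in normoxia, groups that overlap. Hypoxia replicates 1, 2 and 3 were the highest hypoxia library for 18, 13 and 18 of 49 genes and the lowest for 11, 22 and 16.

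Genes of the pathway outside the set were counted over lists in the same fit, to be read against the 31.0% lower and 31.2% higher of all tested genes. Of 44 other interferon-stimulated genes, 13 fell, 4 rose, 14 were not called and 13 were not tested, or 41.9% lower and 12.9% higher of the 31 tested, with a median log2 change of -0.17. TRIM14, an adaptor of MAVS signalling, was at 29.2, 28.4 and 26.1 CPM in hypoxia against 171, 178 and 171 CPM in normoxia, 6.22-fold lower (edgeR adjusted p = 1.174e-08). The DNA sensor gene IFI16 was 4.71-fold lower (adjusted p = 1.097e-06) and NMI 4.03-fold lower (adjusted p = 3.26e-05). The rises were led by SHFL, which blocks ribosomal frameshifting, 2.46-fold (adjusted p = 6.112e-06), the nuclear body gene PML, 1.90-fold (adjusted p = 3.05e-05), and ZNFX1, 1.74-fold (adjusted p = 4.614e-05). Scaled by library totals only, 21 of this list were called lower, where 42.1% of all tested genes were.

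The 10 interferon ligand genes were all too low to test. They summed to 0.316, 0.102 and 0.542 CPM in hypoxia and 0.932, 0.980 and 0.525 CPM in normoxia, and IFNB1 had no count in any library, which allows up to the floor given above. Of 18 other receptor, STAT, IRF and feedback genes, 3 fell, 6 rose, 4 were not called and 5 were not tested, or 23.1% lower and 46.2% higher of the 13 tested, beside 31.0% and 31.2% of all tested genes. SOCS3, a feedback inhibitor of cytokine receptors, was at 2.11, 1.63 and 4.51 CPM in hypoxia against 23.8, 19.7 and 25.2 CPM in normoxia, 7.82-fold lower (edgeR adjusted p = 1.834e-05), and the phosphatase gene PTPN11 was 1.85-fold lower. STAT3 rose 2.24-fold (adjusted p = 4.937e-06), IRF2BP2 1.47-fold and PTPN2 1.41-fold, but IRF2BP2 and PTPN2 were not called when scaled by library totals only (edgeR adjusted p = 0.08994 and 0.1788).

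Of 19 other sensor signalling genes, 6 fell, 5 rose, 6 were not called and 2 were not tested. These shares of the 17 tested, 35.3% lower and 29.4% higher, were near the 31.0% and 31.2% of all tested genes. The endosomal RNA sensor gene TLR3 was at 2.21, 2.65 and 2.53 CPM in hypoxia against 6.43, 8.33 and 7.24 CPM in normoxia, 2.96-fold lower (edgeR adjusted p = 0.0001297). Its adaptor gene TICAM1 was at 69.0, 68.7 and 86.0 CPM in hypoxia against 20.8, 20.0 and 21.3 CPM in normoxia, 3.61-fold higher (adjusted p = 4.989e-07). NLRX1, a mitochondrial NOD-like receptor, was 4.26-fold lower and TKFC, an inhibitor of MDA5, 3.65-fold lower, while TBKBP1 rose 2.96-fold and ZCCHC3 2.30-fold. Of 18 nucleic acid handling genes, 8 fell, 4 rose, 4 were not called and 2 were not tested, or 50% lower and 25% higher of the 16 tested, beside 31.0% and 31.2% of all tested genes. SAMHD1, which depletes nucleotides, was 3.75-fold lower and the RNA helicase gene DHX9 1.93-fold lower, whereas ADARB1, a second editing enzyme, rose 1.68-fold, STAU1 1.53-fold and RNASEH2C 1.62-fold. RNASEH2C was not called when scaled by library totals only (edgeR adjusted p = 0.08282) or when normoxia replicate 2 was left out (0.05003).

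Of 15 antigen presentation genes, 5 fell, 5 rose and 5 were not called, and these shares of 33.3% each were near the 31.0% lower and 31.2% higher of all tested genes. TAP1 and TAP2, which encode the subunits of 1 peptide transporter, moved oppositely, with TAP1 at 79.6, 73.7 and 71.0 CPM in hypoxia against 34.2, 30.9 and 29.2 CPM in normoxia. TAP2 was at 19.1, 19.1 and 16.6 CPM in hypoxia against 63.9, 65.3 and 59.8 CPM in normoxia (edgeR adjusted p = 3.218e-06 for TAP1 and 3.859e-07 for TAP2). The class I gene HLA-B rose 1.67-fold, while NLRC5, a transactivator of class I genes, was 2.35-fold lower and the peptidase gene ERAP2 1.80-fold lower.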

How the data were processed

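RNA of 6 libraries of IOMM-Lee cells was analysed, 3 from hypoxia and 3 from normoxia, grouped by their titles. The deposited file used gives raw counts of reads for each Ensembl ID. Per the submitters' processing notes, the build was GRCh38.p13 and the tools were featureCounts 2.0.1, fastp 0.20.1, DESeq2 1.37.5 and HISAT2 2.1.0. Neither strand setting nor annotation release is given in the sources used here, so reads of a gene and an overlapping or antisense gene may be lost or mixed. A deposited table of normalized values was not used, because its cells run together. Of 61860 lines, 1 names no gene and holds 0.00243% of counts, and it was left out.

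Symbols were matched by Ensembl ID (61756 of 61859), and coordinates and exon lengths came from GENCODE release 29 on GRCh38. Promoter windows came from RefSeq (GRCh38.p14). Members without a window are OAS2, OASL, IFIT2, IFITM2, DHX58, MX2, USP18, TRIM22, IRF3, IRF7, IFNAR2, STING1 and CGAS.

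Counts were fitted with edgeR 4.0.16 in R 4.3.3: filterByExpr (minimum count 10, minimum total 15), TMM, robust quasi-likelihood F test of hypoxia against normoxia over 16411 genes, Benjamini-Hochberg adjustment and a threshold of 0.05. The SE was taken as the log2 change over the root of F. Biological variation (BCV) was 15.3%, and TMM factors were 0.866 to 0.927 in hypoxia and 1.07 to 1.16 in normoxia. The test was tried on simulated counts. Libraries of 1 group differed beyond counting noise (their chi-square over genes was 5.83 to 37.0 per gene), and p-values measure the spread between these libraries only. Members and lists were chosen with earlier results of these data known. Members with a call and a mean of at least 1 CPM (up to 5 per function), and all sensors, adaptors, receptors, kinases and transcription factors, are given by library. From each list up to 3 changes in each direction, with TLR3, are named, and some genes that this rule would name are not reported here. Alternatives were DESeq2 1.42.0, limma-voom (limma 3.58.1), other scalings, filters and gene sets, a replicate block and leaving out each library.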

Additional observations from a re-analysis of the deposited data

How the results depend on the processing

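Over 16 other fits, 23 of the 25 falls and 5 of the 7 rises kept their call in every fit (IFI6 and USP18 lost falls, UBE2L6 and IFNAR1 rises). Falls numbered 32 and the median log2 change of the members was -1.05 when scaled by library totals only. There 5 of 11 signalling factors and 21 other interferon-stimulated genes fell, beside 42.1% of all tested genes. The median was -0.86 with no filter on low counts and ran from -0.85 to -0.72 when libraries were left out in turn. At a log2 change of at least 1, 5570 genes in all and 4 of the rises remained called. Direction changed for genes that were not called in the main comparison. With that scaling the log2 change was -0.0945 for RIGI, -0.0453 for XAF1, -0.0124 for BST2, -0.0427 for TRIM22, -0.26 for IFNAR2, -0.18 for TYK2 and -0.29 for MAVS. For IFNAR2 it was -0.13 with limma-voom, -0.0133 with upper-quartile scaling and -0.083 with no filter. For MAVS it was -0.0395 with DESeq2, -0.0507 with upper-quartile scaling, -0.11 with no filter and -0.00050 without mitochondrially encoded genes. Leaving out libraries in turn gave ranges of -0.80 to 0.24 for IFITM1, -0.35 to 0.0473 for IFITM2, -0.19 to 0.59 for RIGI, -0.51 to 0.12 for ISG15, -0.29 to 0.69 for HERC5, -0.48 to 0.36 for IFNAR2 and -0.0735 to 0.0339 for MAVS. The cause of these changes was not tested. Deviations of same-numbered libraries correlated weakly (-0.13, 0.10 and -0.06), and those of differently numbered libraries ran from -0.15 to 0.22. With 3 libraries per group, this cannot show whether the samples were paired, and the labels do not say. With a replicate block 9768 genes were called, against 10208 without it, and of the members' calls it ended that of USP18. Low counts limit CGAS, RSAD2, IFI44L and the ligand genes.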
